A study of Rattus norvegicus with 3 samples.

Results

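Respiratory complex I, the NADH:ubiquinone oxidoreductase of the inner mitochondrial membrane, was followed through its nuclear genes in the medullary thick ascending limb (mTAL) of the rat kidney. The genes were chosen by name: a probe set belonged to the group when the only gene symbol that the platform annotation gave it starts with Nduf, and the brightest probe set by mean log2 stood for its gene. This gave 46 probe sets and 42 genes of the 14217 genes measured, of which 36 carry names of subunits and 6 (Ndufaf) those of assembly factors. A further 2 probe sets that the annotation assigns to several genes, with an Nduf gene among them, were not used. The study profiled 3 arrays of 1 group. Each array held total RNA of mTAL from male Sprague-Dawley rats of 7 to 8 weeks, all of which were given heparin (250 u) and, to block salt uptake in this segment, the loop diuretic furosemide (1 mg), 30 minutes before they were killed. The kidneys were perfused with collagenase (1 mg/ml) and hyaluronidase (0.5 mg/ml), the outer medulla was digested for 60 minutes, and the tubules were collected from a 33.3% Percoll gradient. No untreated animal, other segment or other tissue was analysed here. The labels leave unsaid whether each sample is 1 rat or a pool. The p-values therefore rest on how far these 3 samples differ, a spread that may be technical.

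Complex I is the entry point for most electrons into the respiratory chain: it oxidises NADH, reduces ubiquinone and pumps protons. It is an L-shaped assembly whose matrix arm carries the flavin and the iron-sulfur clusters and whose membrane arm carries the proton pumps. A set of core subunits conserved from bacteria does the chemistry, the hydrophobic core subunits being encoded in mitochondrial DNA, and many supernumerary subunits surround them. The thick ascending limb reabsorbs sodium chloride at a high rate, is packed with mitochondria and relies on oxidative metabolism to fuel its sodium pumps.

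The authors deposited linear signals with one overall scale for the 3 arrays. Values here are those signals, given for replicates 1, 2 and 3 in that order or as mean ± SD (n = 3 throughout). A gene was called detected when its log2 signal lay above a background cutoff, the 95th percentile of 74 genes known from other tissues, with limma's one-sided test and an adjusted p under 0.05 over all 14217 genes. The cutoff lay at 398, 282 and 351, and the median gene at 638, 678 and 692. All 14 measured markers of the thick ascending limb were detected, Umod at 57572, 64784 and 48750. Proximal tubule markers differed between the preparations: their summed signal over 20 genes was 8289, 30571 and 93864, with Kap at 169, 7164 and 26093 and Slc34a1 at 91.9, 752 and 4684. Over the 3 arrays 4 of these 20 were called detected, and Kap and Slc34a1 were not. Proximal tubule cells are rich in mitochondria as well, so the Nduf signals are those of the preparation, and in such bulk samples fewer cells of a type and less RNA per cell cannot be told apart.

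Nearly all genes of complex I were detected. Of the 36 genes with subunit names 35 were called, all but Ndufa4l2, and of the 6 Ndufaf genes 5 were, all but Ndufaf1, where 54.0% of all genes were called. The mean log2 signal of 33 of the 36 subunit genes fell in the top 10.0% of genes, and that of none of the 6 Ndufaf genes did. The median subunit gene stood 4.89, 4.59 and 4.67 log2 units above the median gene of its array and the median Ndufaf gene 1.77, 1.34 and 1.48, with the median of all genes at 0 by definition. Each probe set hybridises with its own strength, so an order of genes by signal describes signals and not relative transcript abundance.

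**Figure D1:**
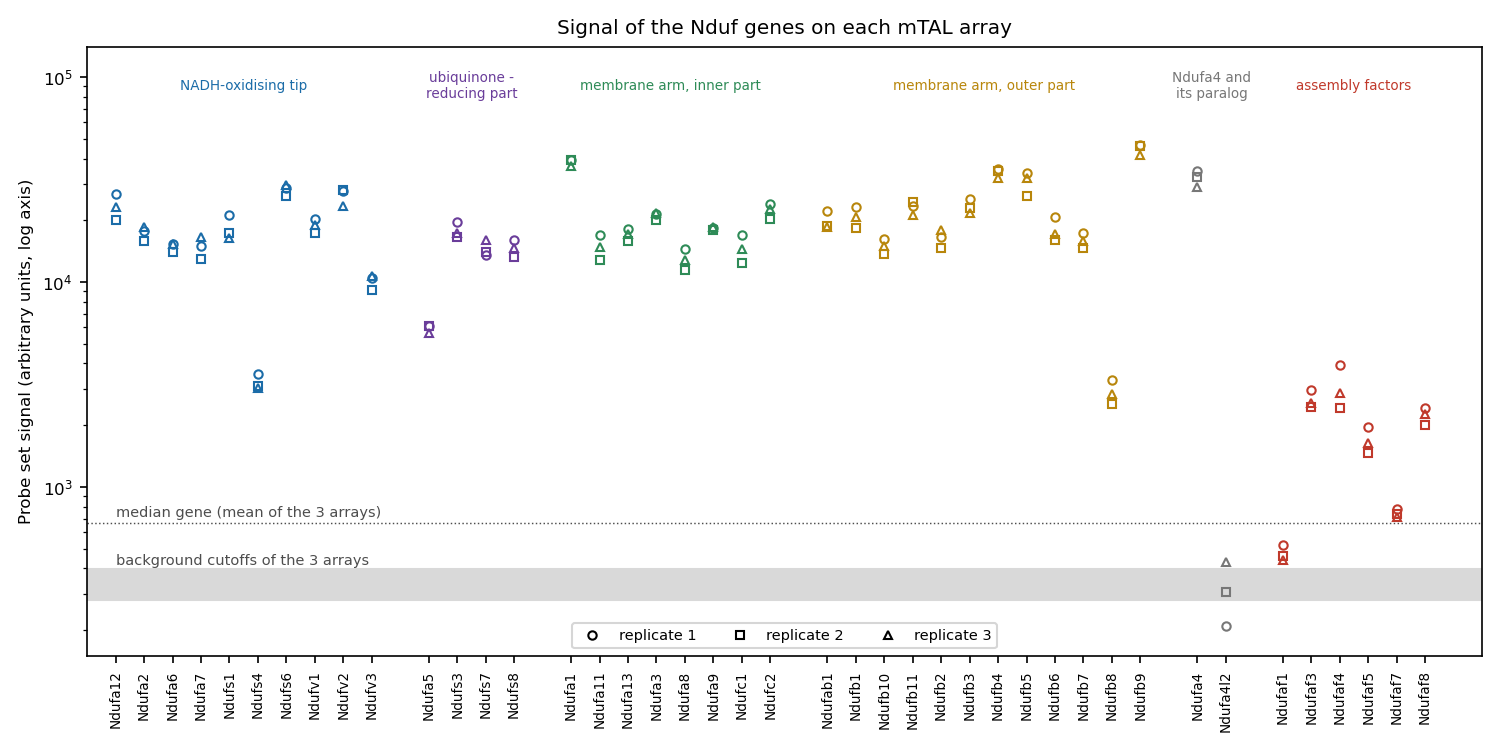
Signal of each of the 42 Nduf genes (horizontal axis, grouped by place in the complex) on a log axis in arbitrary units, with 1 marker shape for each of the 3 arrays. The grey band spans the 3 background cutoffs and the dotted line is the median gene. The 34 subunits of the complex lie well above both. The Ndufaf genes lie below most subunits, though Ndufaf4 overlaps the dimmest, Ndufb8 and Ndufs4, and Ndufaf3 overlaps Ndufb8. Ndufa4l2 and Ndufaf1 lie near the band.

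The group listed for the end of the matrix arm that oxidises NADH held 10 genes, all detected. The regions named here follow a list made for this work, and single subunits may lie beside the region they are listed under. Ndufv1, which binds NADH and the flavin cofactor, had signals of 20204, 17331 and 18901, and its iron-sulfur neighbour Ndufv2 had 27729, 27979 and 23534. Ndufs1, the largest subunit of the matrix arm and a carrier of several iron-sulfur clusters, had 21092, 17324 and 16331. For Ndufv1 and Ndufs1 replicate 1 was the highest array, whereas Ndufv2 was nearly level on replicates 1 and 2 and lower on replicate 3. Ndufs6, a zinc-binding subunit, had 28596, 26292 and 29807, and Ndufa12, the paralog within the complex of an assembly factor, 26866, 19968 and 23299.8. The LYR protein Ndufa6 (14875 ± 729), the thioredoxin-fold subunit Ndufa2 (17333 ± 1353), Ndufa7 (14834 ± 1792) and Ndufv3 (10083 ± 876) had means between 10000 and 20000. Ndufs4, a supernumerary subunit known for its loss in Leigh syndrome, had the lowest signal of the 10 at 3540.0, 3089 and 3050.2. It was still 3.24 log2 units above the cutoff (limma adjusted p = 0.00011), and it was the only one of these 10 outside the top 10.0% of genes.

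The part of the matrix arm that hands electrons to ubiquinone was represented by 4 genes, all detected and all in the top 10.0% of genes. Ndufs7 and Ndufs8, which hold the last iron-sulfur clusters before the quinone, had signals of 13558, 14045 and 16074 and of 16063, 13267 and 14566. Ndufs7 was highest on replicate 3 and Ndufs8 on replicate 1. Ndufs3, a core subunit that holds no cluster, had 19496, 16508 and 17245. The small supernumerary subunit Ndufa5 had 6109.7, 6082 and 5633, with replicates 1 and 2 almost equal, and lay 4.13 log2 units above the cutoff (limma adjusted p = 8.6e-05). With Ndufv1, Ndufv2 and Ndufs1, 6 of the 7 nuclear core subunits listed for this work were measured, and all 6 were detected, at a median level of 4.96, 4.64 and 4.60 log2 units above the median gene.

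Of the 10 genes listed for the inner part of the membrane arm and the junction of the 2 arms, 8 were measured. All 8 were detected and in the top 10.0% of genes. Ndufa10 and Ndufs5 were not measured. Ndufa1, a small membrane subunit encoded on the X chromosome, had signals of 39302, 39287 and 36944, 6.82 log2 units above the cutoff. Ndufa9, a subunit at the junction with a dehydrogenase-like fold, had 18392, 17913 and 18517. Its log2 SD of 0.0253, on the scale as deposited, was the lowest of all members. Ndufc1, by contrast, had 17028, 12388 and 14421, the widest spread among the 34 subunits of the complex (log2 SD 0.23), with replicate 1 highest and replicate 2 lowest. Its partner Ndufc2 had 22379 ± 1865 and Ndufa3 21036 ± 894. Ndufa13, known also as a regulator of cell death and needed for assembly, had 17009.8 ± 1147. Ndufa11 (14872 ± 2147) and the intermembrane-space subunit Ndufa8 (12931 ± 1521) had the same order of arrays as Ndufc1.

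The outer part of the membrane arm gave 12 genes, all detected, of which 11 were in the top 10.0% of genes. Ndufb9, a LYR protein, had the highest signal of all Nduf genes at 46424, 45858 and 41653, 7.03 log2 units above the cutoff. Ndufb4 (35528, 34948 and 32057) and Ndufb5 (34082, 26197 and 32104), subunits with a membrane span, came next among these 12. Ndufb4 was lowest on replicate 3 and Ndufb5 on replicate 2. Ndufab1, the mitochondrial acyl carrier protein, which also serves fatty acid synthesis and binds LYR subunits of the complex, had 22057, 18687 and 18496. Ndufb3 (23417 ± 1878), the X-linked Ndufb11 (23053 ± 1739) and Ndufb1 (20815 ± 2444) had means above 20000, and Ndufb6 (17964 ± 2466), Ndufb2 (16411 ± 1689), the intermembrane-space subunit Ndufb7 (15939 ± 1389) and Ndufb10 (14906 ± 1248) means below it. Ndufb8, whose protein is often probed as a sign of assembled complex I, had the lowest signal of the 12 at 3326, 2545 and 2842, 3.09 log2 units above the cutoff (limma adjusted p = 0.000107). It and Ndufs4 were the 2 subunits of the complex outside the top 10.0% of genes. The other 32 were inside.

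Ndufa4 and Ndufa4l2 carry subunit names but are set apart, since the product of Ndufa4 was later assigned to cytochrome c oxidase. Ndufa4 had signals of 34803, 32644 and 29126, falling in the range of the membrane arm genes. Ndufa4l2, a paralog known to be induced by hypoxia, had 209, 306 and 431. It lay below the cutoff on replicate 1 and above it on replicates 2 and 3, and the mean difference from the cutoff was -0.17 log2 units (limma adjusted p = 1). With arrays centred on their median gene, replicate 3 was 0.93 log2 units above replicate 1, the only member past 1.5-fold upward, where 14.7% of all genes were. Marker lists of other cells differed in the same direction: the summed signal of 8 fibroblast and mural cell markers was 1243, 3140.3 and 3886, with a median difference of 1.67 between replicates 3 and 1, and the median difference of 20 proximal tubule markers was 4.33. Of the 8 fibroblast and mural cell markers 1 was detected, and of the 20 proximal tubule markers 4 were. The part of these cells in the Ndufa4l2 signal was not tested. A missed call is no evidence that the gene is silent, only that it did not stand clear of this background.

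Assembly factors help to build the complex and leave it when it is complete. Ndufaf3 and Ndufaf4, which act together on the early quinone-binding part, had signals of 2983, 2453 and 2553 and of 3951, 2433 and 2855. Ndufaf4 was the member furthest below replicate 1 on both other arrays. Ndufaf5, which hydroxylates Ndufs7, had 1956, 1467 and 1633, and its partner Ndufaf8 2424, 2013 and 2271. The limma adjusted p of these 4 genes ran from 0.000111 for Ndufaf4 to 0.000221 for Ndufaf5. Ndufaf7, a methyltransferase that acts on a core subunit, had 779, 737 and 716 (limma adjusted p = 0.00353). Ndufaf1, of the assembly complex that builds the membrane arm, had 522, 458 and 439. It was above the cutoff on every array, by 0.47 ± 0.19 log2 units (mean ± SE), and missed the threshold (limma adjusted p = 0.0583). Both missed calls depended on the background chosen: with the 90th in place of the 95th percentile as the cutoff, Ndufaf1 passed (limma adjusted p = 0.0007), as did Ndufa4l2 (limma adjusted p = 0.0329). Over all alternatives tried, the limma adjusted p of Ndufaf1 ran from 7.81e-07 to 1.

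Most of the assembly factors that do not carry an Nduf name were detected as well, 11 of the 12 measured among 13 listed genes. The partners of Ndufaf1 were Tmem126b (4029 ± 282), Acad9 (2781 ± 321), an acyl-CoA dehydrogenase by descent, and Ecsit (2442 ± 345), all 3 detected, with Tmem186 at 859.8 ± 138. Timmdc1, a membrane-arm factor, had 3223 ± 86.4, Foxred1 1261 ± 375, and Nubpl, which delivers iron-sulfur clusters, 765 ± 93.6. Aifm1, a flavoprotein of the intermembrane space that also supports protein import, had 12418 ± 2436 and was the only one in the top 10.0% of genes. Lyrm2 (2832 ± 312), Dmac1 (1857 ± 210.1) and Sfxn4 (962 ± 38.1) were detected. Tmem70, best known from assembly of the ATP synthase, had 208, 221 and 192, -0.72 log2 units relative to the cutoff (limma adjusted p = 1). The list's median level was 1.88, 1.60 and 1.51 log2 units above the median gene.

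For 4 of the 42 genes the array held more than 1 probe set, and these did not give one level. The probe sets of Ndufa9 had signals of 18392, 17913 and 18517 and of 544, 571 and 555, and those of Ndufa7 of 15024, 12955 and 16524 and of 896, 741 and 826. The brighter lay 32.8-fold above the dimmer for Ndufa9 and 18.0-fold for Ndufa7. For Ndufv3, which is known to be spliced into a long and a short form, the probe sets had 10444, 9084 and 10721 and 1882, 1374 and 1629.8, and for Ndufaf7 779, 737 and 716 and 637, 386 and 466. All 8 probe sets were above the cutoff on average, by 0.51 log2 units at the least. All 8 were also lower on replicate 2 than on replicate 1 relative to the median gene, though the dimmer set of Ndufa9 was higher on the scale as deposited. Which transcripts each probe set reads is not given in the sources used here. RefSeq lists 44 pseudogenes and 8 further like-named genes of the 42 members, spread over 20 of them, with Ndufb4 having the most (7 and 4). How far such copies add to a signal was not tested, and the signals of these 20 genes are uncertain in that respect. Copies were found by name only and no sequences were compared, so other members may have copies under other names.

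The 34 subunits of the complex varied little between the preparations. On the scale as deposited, without centring, their log2 SD over the 3 arrays ran from 0.0253 to 0.23. The median was 0.125, and on that scale the SD was below 0.25 for all 34. The median SD was 0.248 over all genes, 0.161 over the 8678 genes above the cutoff on average and 0.118 over the top 10.0% of genes. The SD of complex I genes was thus about that of other genes of high signal. No array differed from another by more than 1.46-fold for any of the 34 after centring on the median gene. The widest of the Ndufaf genes was Ndufaf4, with an SD of 0.356, and of all members Ndufa4l2, with 0.524.

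Small as they were, the differences between arrays ran one way for most members. Relative to the median gene, 35 of the 36 subunit genes were lower on replicate 2 than on replicate 1, with a median difference of -0.29 log2 units, and 33 were lower on replicate 3, with a median of -0.25. All 6 Ndufaf genes were lower on both, with medians of -0.36 and -0.36, as they were on the scale as deposited. Both differences share replicate 1, so they are not independent: 46% of all genes and 66.5% of the top 10.0% were lower on both when centred, and 33.9% and 43.4% as deposited. Taken one array at a time, over all genes 59.5% were lower on replicate 2 and 61.2% on replicate 3, with medians of -0.10 and -0.11, and in the top 10.0% of genes 76.4% and 79.2%, with medians of -0.15 and -0.16. A majority of genes on the lower side was thus not particular to the Nduf genes. On the scale as deposited, without centring, the subunit medians were -0.20 (32 of 36 lower) and -0.13 (26 of 36 lower), with 51% and 49.2% of all genes and 61.7% and 59.4% of the top 10.0% lower. After quantile normalization 31 and 26 of the 36 were lower, beside 53.5% and 49.0% of all genes. With arrays scaled to a common 75th percentile 33 and 27 were, beside 54.5% and 50.2% of all genes. Each array is a single preparation, so these differences have no replicate test.

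Few members passed 1.5-fold between arrays. Only Ndufaf4 was lower past that size on replicate 2, against 14.0% of all genes, and on replicate 3, against 14.4%. The replicate 3 value lay at the threshold and did not pass it on the scale as deposited, where Ndufaf4 was 1.62-fold lower on replicate 2 (11.8% of all genes lower past 1.5-fold) and 1.38-fold lower on replicate 3 (11.7%). No member was higher past it on replicate 2 than on replicate 1, where 15.4% of all genes were. Between replicates 2 and 3 none of the 42 passed it in either direction, where 13.9% of all genes were lower and 13.4% higher on replicate 3. These shares include many genes of low signal, whose spread is wider. The members furthest down from replicate 1 to replicate 3 were Ndufaf4 (-0.59), Ndufs1 (-0.49) and Ndufb6 (-0.40), the last with signals of 20759, 16096 and 17035. Those furthest up were Ndufa4l2 (0.93), Ndufs7 (0.13) and Ndufa7 (0.02). Thick ascending limb markers differed by -0.22 and -0.26 on the same arrays, close to the subunit genes. Proximal tubule markers differed by 2.39 and 4.33, the other way (4 of 20 measured markers detected). So did the median marker of several other cells: thin limb of Henle's loop (1.58 and 0.66, 4 of 4 measured markers detected), collecting duct principal cells (1.07 and 1.57, 5 of 8), endothelium (0.80 and 0.74, 8 of 9), fibroblasts and mural cells (1.40 and 1.67, 1 of 8), intercalated cells (0.30 and 0.38, 2 of 5), leukocytes (0.43 and 0.36, 2 of 9) and distal convoluted tubule (0.45 and 0.66, 0 of 3). The podocyte medians were -1.31 and -2.56 (1 of 3 detected) and those of red blood cells -0.10 and 1.45 (1 of 2). Thin limb markers had their highest summed signal on replicate 2 (26926, 71214 and 40728), proximal tubule markers on replicate 3. The part of cell makeup in the Nduf differences was not tested.

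**Figure D2:**
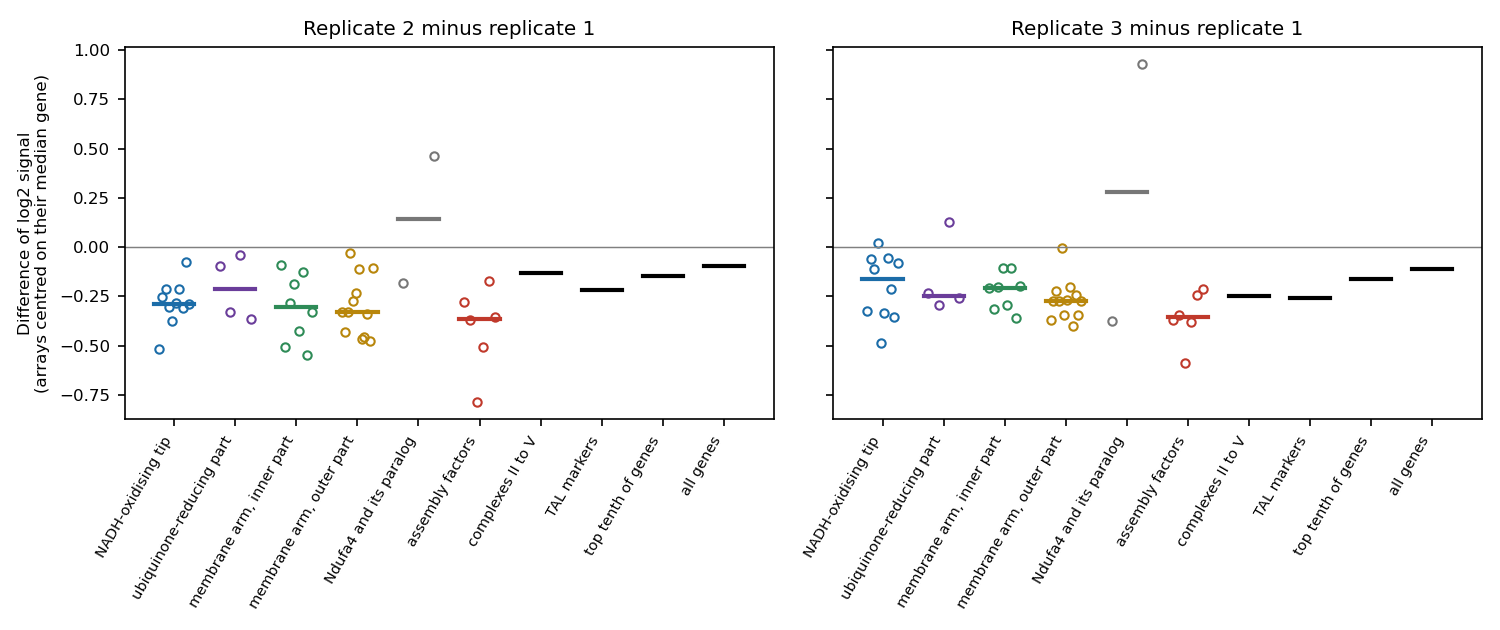
Difference of log2 signal between arrays, each centred on its median gene, for replicate 2 minus 1 (left) and replicate 3 minus 1 (right); circles are Nduf genes by place in the complex, coloured bars their medians, and black bars the medians of reference groups. Nearly all Nduf genes lie below 0 on both sides except Ndufa4l2, and the medians of all genes (-0.10 and -0.11) are below 0 too.

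The 4 regions of the complex, as listed for this work, had medians below 0 on both arrays relative to replicate 1. The medians for replicate 2 were -0.29 at the NADH tip, -0.21 in the quinone-binding part, -0.31 in the inner and -0.33 in the outer membrane arm, and those for replicate 3 were -0.16, -0.25, -0.21 and -0.27. All 12 measured genes of the outer and all 8 of the inner membrane arm were lower on both arrays than on replicate 1 when centred. Without centring, 11 of 12 were lower on each array for the outer arm, and 8 and 6 of 8 for the inner arm. These counts stand beside the shares of all genes given above, since both differences are taken from the same array. The ranges of the single genes overlapped between all 4 regions, and a difference between regions was not tested.

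Between replicates 2 and 3 most genes of complex I and most of the rest of the respiratory chain lay on opposite sides of 0. With 1 preparation each, this has no replicate test. Of 35 measured subunits of complexes II to V, all detected, 29 were lower on replicate 3 than on replicate 2, with a median of -0.12 log2 units, whereas 25 of the 36 Nduf subunit genes were higher, with a median of 0.10. The 2 groups also differed in signal: the median gene of complexes II to V had 35441 and that of the Nduf subunits 17780. Among all 90 genes of the table with a mean signal above 30000, 85.6% were lower on replicate 3, with a median of -0.12. In that range 4 of 5 Nduf genes (median -0.15) and 21 of 23 genes of complexes II to V (median -0.12) were lower. Between 20000 and 30000, 5 of 8 Nduf genes were higher on replicate 3 (median 0.11) and 8 of 11 genes of complexes II to V lower (median -0.13), beside 62.6% lower among all 115 genes of that range. Between 10000 and 20000, where no gene of the other complexes fell, 17 of 19 Nduf genes were higher (median 0.11), beside 202 of all 395 genes (median 0.00605). Over all genes this difference thus moved with the signal range. Between 10000 and 30000 the Nduf medians lay above those of all genes, which were 0.00605 and -0.05. The part of the signal range in the difference between the 2 groups was not tested.

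**Figure D3:**
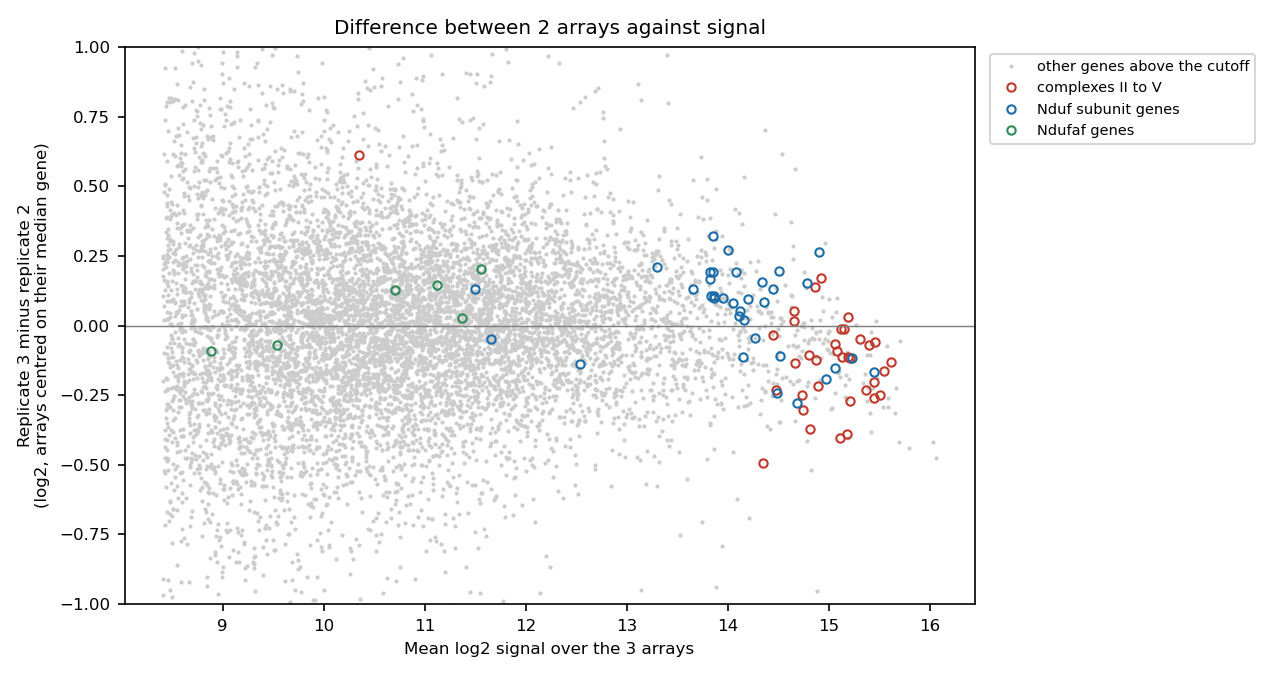
Replicate 3 minus replicate 2 (log2, arrays centred on their median gene) against mean log2 signal for genes above the mean cutoff, with Nduf subunit genes in blue, Ndufaf genes in green, complexes II to V in red and other genes in grey; 167 other genes lie outside the plotted range of -1 to 1. Most genes at the bright end lie below 0, and most Nduf subunit genes at log2 signals near 14 lie above it.

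Since nearly all Nduf subunit genes had high signals on every array, their promoters were read for shared letters. RefSeq promoters (GRCr8, 250 bases before to 50 after the annotated start) were found for 40 of the 42 genes, 34 of them with subunit names. These 34 include Ndufa4 and Ndufa4l2 and lack Ndufa8 and Ndufb9, so they are not the 34 subunits of the complex named above. Motifs of 4 factors known to drive nuclear genes of mitochondria were searched on both strands: TNAAGGTCA for the oestrogen-related receptors (ERR), a pair of GCGC blocks with any 2 bases between them for nuclear respiratory factor 1 (NRF1), CCGGAAG for GABPA and other ETS factors, and AANATGGCG for YY1. The CCAAT box (CCAAT) and the TATA box (TATAAA) were added. The NRF1 letters read the same on both strands, and in the promoters shown no match of one of the 4 factors overlapped a match of another. The following promoters are shown because each holds motifs of 2 of the 4 factors; 6 subunit genes do, and 5 are given. Capitals mark matches to the ERR, NRF1, GABPA and YY1 letters on either strand.
Ndufb4 (GRCr8 chr11:76568928-76569227, plus strand): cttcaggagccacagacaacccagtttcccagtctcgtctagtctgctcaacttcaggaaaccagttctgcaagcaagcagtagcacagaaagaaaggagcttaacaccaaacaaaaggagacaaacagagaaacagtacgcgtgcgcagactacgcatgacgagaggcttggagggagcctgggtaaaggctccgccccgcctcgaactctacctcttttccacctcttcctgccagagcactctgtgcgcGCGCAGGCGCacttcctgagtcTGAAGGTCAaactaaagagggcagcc
Ndufs6 (GRCr8 chr1:31797150-31797449, plus strand): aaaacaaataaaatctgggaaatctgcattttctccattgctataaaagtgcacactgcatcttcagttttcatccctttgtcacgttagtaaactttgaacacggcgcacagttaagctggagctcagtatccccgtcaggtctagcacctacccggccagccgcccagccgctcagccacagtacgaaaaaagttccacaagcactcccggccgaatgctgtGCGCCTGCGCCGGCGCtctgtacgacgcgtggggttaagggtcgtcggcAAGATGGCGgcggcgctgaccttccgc
Ndufs1 (GRCr8 chr9:72073556-72073855, minus strand): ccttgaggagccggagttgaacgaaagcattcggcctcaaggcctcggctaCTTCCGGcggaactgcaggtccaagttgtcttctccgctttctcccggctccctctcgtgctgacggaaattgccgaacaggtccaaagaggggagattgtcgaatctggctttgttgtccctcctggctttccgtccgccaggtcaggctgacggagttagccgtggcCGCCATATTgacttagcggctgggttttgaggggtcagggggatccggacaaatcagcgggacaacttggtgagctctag
Ndufa6 (GRCr8 chr7:115750268-115750567, minus strand): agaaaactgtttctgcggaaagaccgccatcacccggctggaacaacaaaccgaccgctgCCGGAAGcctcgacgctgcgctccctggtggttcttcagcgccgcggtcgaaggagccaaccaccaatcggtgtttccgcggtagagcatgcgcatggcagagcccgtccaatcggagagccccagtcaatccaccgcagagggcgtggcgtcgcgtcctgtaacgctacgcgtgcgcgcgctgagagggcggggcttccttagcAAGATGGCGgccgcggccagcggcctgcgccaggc
Ndufa13 (GRCr8 chr16:19560276-19560575, plus strand): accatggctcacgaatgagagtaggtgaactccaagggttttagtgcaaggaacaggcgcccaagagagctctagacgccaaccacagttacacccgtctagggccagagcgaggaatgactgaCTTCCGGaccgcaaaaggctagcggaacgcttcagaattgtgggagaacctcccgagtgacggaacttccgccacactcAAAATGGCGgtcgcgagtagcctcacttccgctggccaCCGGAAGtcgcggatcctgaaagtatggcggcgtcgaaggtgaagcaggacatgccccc

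In Ndufb4, whose signal was among the highest of the group, the capitals are an NRF1 and an ERR match, the latter being the only ERR match among the 40 promoters. In Ndufs6 they are overlapping NRF1 matches and a YY1 match, and in Ndufs1, Ndufa6 and Ndufa13 GABPA and YY1 matches. YY1 letters stood in 11 of the 34 subunit promoters (32.4%), in 3.01% of all 33469 promoters of 300 bases and in 7.45% of the 1288 promoters of genes in the top 10.0% by signal. These letters include ATGGCG, which can also open a coding sequence. In the subunit genes other than Ndufa13 (-47) and Ndufs1 (-30) the matches lay after the annotated start, on the strand of the gene. How many matches are start codons was not tested. NRF1 letters stood in 7 of 34 (20.6%), against 5.58% of all and 14.7% of the top genes' promoters, and GABPA letters also in 7 of 34, against 8.75% and 16.7%. ERR letters stood in 1 of 34, against 1.2% of all and 0.699% of the top genes' promoters. CCAAT stood in 11 of 34 (32.4%), against 37.5% of all and 39% of the top genes' promoters. TATAAA stood in 3 of 34 (8.82%), against 14.2% of all and 8.23% of the top genes' promoters. At least 1 of the 4 factors' motifs stood in 20 of the 34 subunit promoters (58.8%), against 16.4% of all and 33.5% of the top genes' promoters, and 14 held none. These shares describe letters in a fixed window and are not evidence of binding.

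**Figure D4:**
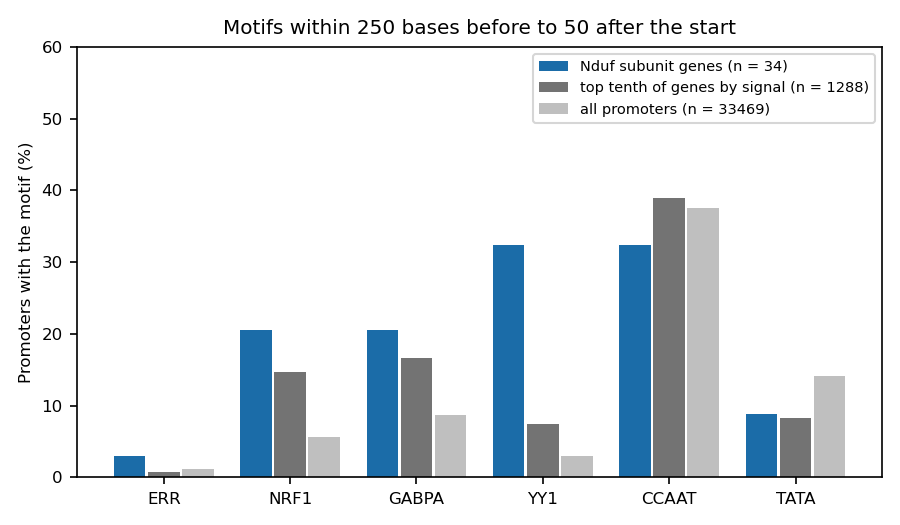
Percentage of promoters (vertical axis) with a match to each of 6 motifs, for 34 Nduf subunit genes, for the top 10.0% of genes by signal and for all RefSeq promoters. The YY1 bar of the Nduf genes (32.4%) is above those of the top genes (7.45%) and of all promoters (3.01%). The NRF1 and GABPA bars (20.6% each, 7 of 34 genes) lie closer to those of the top genes (14.7% and 16.7%). The CCAAT bar is below both other groups.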

How the data were processed

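The authors deposited linear signal intensities, 1 for each probe set of an array, whose trimmed mean is alike on the 3 arrays; the summary method is not given in the sources used here. Signals were put on a log2 scale with no pseudocount. Of 31099 probe sets 20826 carry 1 gene symbol in the platform annotation, 436 several and 9780 none (57 are controls), and the brightest probe set stood for each of 14217 genes. Detection was tested with limma 3.58.1 (R 4.3.3), one-sided against each array's cutoff, with Benjamini-Hochberg adjustment over all genes. In simulated arrays of these genes 45 of 50 genes placed 2 log2 units above the cutoff were called and 29 of 50 placed 0.25 above it. The members, lists and background genes were chosen with earlier results of these data known. Every measured Nduf gene and other assembly factor was named. Array differences were described after centring on the median gene, and log2 SDs on the scale as deposited. With 3 arrays their number limits the precision. Promoters came from RefSeq (GRCr8). The subunits encoded in mitochondrial DNA were not analysed here. Alternatives covered scaling, probe sets, the cutoff and each array left out.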

Additional observations from a re-analysis of the deposited data

How the results depend on the processing

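The count of detected subunit genes was 35 or 36 under every alternative tried. The share of all genes called ran from 26.7% to 78.3%, apart from a filter on low signals. The count was 36 with the 90th percentile as the cutoff, where 63.6% of all genes were called, and at the setting with 78.3%. All 7108 genes kept by the filter were called, so that setting could not fail a subunit gene. The strictest background, a cutoff at the 99th in place of the 95th percentile, left 3 of 6 Ndufaf genes and 3801 of all genes called; Ndufaf7 then lay on the other side of the cutoff at -0.85 log2 units (limma adjusted p = 1) and Ndufaf5 was not called (limma adjusted p = 0.101). Taking the mean or the lowest probe set of every gene, which lowers the median gene, put the median level at 5.27 or 5.85 for the subunits and 2.11 or 2.69 for the Ndufaf genes. After quantile normalization the subunit median was -0.11 for replicate 3 against 1 and -0.16 for replicate 2 against 1. The scale without centring, given with the differences between arrays, was chosen after seeing the data. Leaving out each array in turn gave 35 subunit and 5 Ndufaf genes each time, 6780 to 7760 of all genes, and levels of 4.63 to 4.78 and 1.41 to 1.62. No paired analysis was possible because the study has 1 group.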
